A study of Mus musculus with 42 samples.

Results

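The data are RNA-seq gene counts from the livers of mice killed in the light phase, 4 h and 8 h after lights on (ZT 4 and ZT 8), and the comparison is the high-fat diet (HFD) against the AIN93G control diet over both times. The members were the 12 libraries labelled ZT 4 or ZT 8, out of 42 in the series, with 3 libraries per diet at each time and 6 per diet in all. The mice were female weanlings, labelled C57BL/6 and named as the substrain C57BL/6NHsd in the study's methods, 3 weeks old at the start and fed for 3 weeks, with soybean oil giving 16% of energy in the AIN93G diet and 45% in the HFD. Both diets were purified diets made with the same oil, and the labels give no genetic change and no drug in either group. Each library is labelled as a sample of its own, and the mice were group-housed, with no record used here of which shared a cage, so p-values measure the spread between these samples. Library titles share a leading number in places, always within 1 diet, and what it marks is not given in the sources used here. Among the 12 libraries it is shared by AIN93G ZT 4 replicate 3 with AIN93G ZT 8 replicate 3 and by HFD ZT 4 replicate 3 with HFD ZT 8 replicate 3.

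A diet with more of its energy as fat and less as starch gives the liver less carbohydrate to convert to fatty acids. The cytosolic enzymes of that route turn acetyl-CoA into palmitate, and elongases and desaturases extend and unsaturate it. The genes are under insulin, the transcription factors SREBP-1c and ChREBP, and dietary unsaturated fatty acids, and mouse liver transcribes them most around the feeding phase. The light phase is the resting phase of a mouse, but mice on a high-fat diet can eat much of their food then, and food intake before death was not analysed here.

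Totals ran from 15306840 to 17663391 counts in the AIN93G libraries and from 15833137 to 17529275 counts in the HFD libraries. The 10 hepatocyte markers summed to between 105500 and 154300 CPM (counts scaled to a common library size), and albumin alone to between 66430 and 112000 CPM, so each library matched its liver label. The clock genes matched the time labels. By the time term of the edgeR quasi-likelihood fit 14 of the 19 clock genes differed between ZT 8 and ZT 4 at an adjusted p under 0.05, against 2.63% of all genes tested. Arntl, the activator of the clock loop, had a log2 fold change of -3.47 (SE 0.23) for ZT 8 over ZT 4, and its target Dbp 3.23. Transcripts of skeletal muscle stood apart in AIN93G ZT 8 replicate 2 (the library labelled Y21_1, called the muscle-rich library), where 16 muscle markers summed to 2873 CPM, against 215 CPM and 59.3 CPM in HFD ZT 8 replicates 3 and 1 and between 4.79 and 20.5 CPM in the other 9. Over the 12 libraries all 15 muscle markers tested had a negative diet difference (median log2 fold change -2.43), and without that library all 9 tested were positive (median 1.25). Ucp1, the defining gene of brown fat, was at 24.2 CPM in AIN93G ZT 4 replicate 3, at 0.0600 CPM in AIN93G ZT 8 replicate 2 and at 0 in the other 10. White adipocyte markers were also highest in AIN93G ZT 4 replicate 3 for Fabp4 (32.7 CPM), Cfd (17.1 CPM), Adipoq (5.01 CPM) and Plin1 (4.22 CPM). Lipe, Car3 and Aqp7 of the same list were higher in other libraries. Of 10 Kupffer cell and macrophage markers 9 had a positive diet difference, and their sum ran from 466 to 672 CPM on AIN93G and from 439 to 758 CPM on the HFD. All 5 erythroid markers tested were positive (median 0.34), 1 of them at an unadjusted edgeR p under 0.05. The erythroid sum ran from 71.4 to 130 CPM on AIN93G and from 84.3 to 208.5 CPM on the HFD. In whole liver, fewer cells of a type and less RNA per cell cannot be told apart.

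Of 12028 genes tested, 1 passed an adjusted p of 0.05 in edgeR, which is 0.00831%. DESeq2 on the same counts called 31 genes higher on the HFD (0.258%) and 22 lower (0.183%). At an unadjusted p under 0.05 edgeR had 459 genes higher (3.82%) and 460 lower (3.82%), and when libraries were scaled by their totals alone that split became 594 higher and 305 lower. Counts of list members at that level, given below, are to be read against 3.82% of all genes in each direction. For single times the shares of all genes were 1.4% higher and 1.16% lower at ZT 4, and 4.68% higher and 5.29% lower at ZT 8. The HFD libraries lay wholly above the AIN93G libraries at both times for 63 genes (0.524%) and wholly below for 39 (0.324%). The median log2 fold change over all genes was -0.0056. Of the 53 DESeq2 calls 17 held whichever library was left out. Single fits kept from 27 (without HFD ZT 4 replicate 3) to 42 (without AIN93G ZT 4 replicate 2). The fit without the muscle-rich library kept 28 and that without AIN93G ZT 8 replicate 1 kept 29. In what follows a gene is said to have risen or fallen only where edgeR called it, and a call by DESeq2 is named as such.

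Abcc3 rose on the HFD. It codes for MRP3, which exports glucuronides and bile acids from hepatocytes into blood, and lies on chromosome 11 from 94343295 to 94392997 of mm10. At ZT 4 the AIN93G libraries held 81.0, 61.7 and 63.3 CPM and the HFD libraries 138, 87.9 and 127 CPM. At ZT 8 they held 79.4, 67.4 and 71.3 CPM on AIN93G and 140.1, 131 and 139.7 CPM on the HFD. Each of the 6 HFD libraries was above each of the 6 AIN93G libraries. Means were 127 ± 20.0 CPM and 70.7 ± 8.12 CPM (SD, n = 6), a 1.80-fold difference with a log2 fold change of 0.84 (SE 0.12) and an edgeR adjusted p of 0.0289. The call held in 3 of the 12 edgeR fits that each left out 1 library (those without AIN93G ZT 4 replicate 1, HFD ZT 4 replicate 2 or HFD ZT 8 replicate 3) and was lost in 9, with adjusted p from 0.0532 to 0.145 and log2 fold changes from 0.80 to 0.94 over all 12 fits, while DESeq2 called it in 12 of 12.

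All 19 listed de novo lipogenesis genes had a negative estimate of the diet difference, and the list as a whole was not tested. The estimates had a median log2 fold change of -0.62, at ZT 4 of -0.44 and at ZT 8 of -0.72. DESeq2 called 6 of the 19 lower (Pnpla3, Pnpla5, Scd1, Elovl6, Acaca and Pklr) and none higher, edgeR called none, and 10 had an unadjusted edgeR p under 0.05. The largest differences were in lipases of the patatin family, in stearoyl-CoA desaturase and in the elongase of palmitate, rather than in the synthase itself. The list was drawn up with results of these libraries known. AIN93G ZT 8 replicate 3 held the highest level of most of these genes. Without it 17 of the 18 members of the de novo lipogenesis list that could be tested were lower and the median was -0.36, and over the 12 fits that each left out 1 library the median ran from -0.68 to -0.36. Without the muscle-rich library all 19 were lower (median -0.61) and 10 had an unadjusted p under 0.05.

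Promoters of 3 of the listed genes, Pnpla3 and Pnpla5 (called by DESeq2) and Fasn (not called), are shown because the CCAAT box, bound by NF-Y beside SREBP sites, is common in the list. Each is the 250 bases before the RefSeq start in GRCm38.p6 (the mm10 build), in the direction of transcription, and capitals mark the box on either strand (CCAAT or its complement ATTGG). Pnpla3 lies at chr15:84167566-84167815 on the plus strand, Fasn at chr11:120824548-120824797 on the minus strand and Pnpla5 at chr15:84123176-84123425 on the minus strand.
Pnpla3: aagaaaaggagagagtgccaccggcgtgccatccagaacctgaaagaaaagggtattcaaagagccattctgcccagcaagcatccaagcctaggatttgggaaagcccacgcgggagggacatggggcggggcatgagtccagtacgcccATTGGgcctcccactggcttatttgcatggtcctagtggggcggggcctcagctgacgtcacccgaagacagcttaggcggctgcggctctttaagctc
Fasn: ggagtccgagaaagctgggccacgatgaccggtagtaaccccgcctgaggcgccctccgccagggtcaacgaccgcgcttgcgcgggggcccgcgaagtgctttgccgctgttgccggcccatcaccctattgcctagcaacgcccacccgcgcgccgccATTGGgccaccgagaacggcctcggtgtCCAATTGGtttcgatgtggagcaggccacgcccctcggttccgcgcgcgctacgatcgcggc
Pnpla5: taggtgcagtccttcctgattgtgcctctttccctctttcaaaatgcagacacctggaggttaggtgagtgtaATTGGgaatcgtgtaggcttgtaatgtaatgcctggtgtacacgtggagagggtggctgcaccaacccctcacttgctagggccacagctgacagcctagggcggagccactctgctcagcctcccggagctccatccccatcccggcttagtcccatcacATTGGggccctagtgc
The 3 matches in Fasn include a pair that overlap on opposite strands. Among the 17 members with a RefSeq promoter (250 bases before to 50 after the start, both strands), 76.5% held CCAAT, against 43.1% of the 9260 tested genes with one. Acaca and Elovl6, both called, held none, and among all genes that DESeq2 called lower the box was in 38.9% of the 18 promoters, under the share of all genes tested. The share was also high in other lists, at 94.1% of the sterol synthesis genes and 87.5% of the endoplasmic reticulum chaperones. The sterol element TCACNCCAC was in 1 of the 17 lipogenic promoters (5.88%), that of Mlxipl, which neither tool called. It was in 1.5% of all promoters and in 0 of the 18 of genes that DESeq2 called lower.

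Pnpla3, a lipase and acyltransferase of lipid droplets that SREBP-1c and ChREBP induce, had the smallest DESeq2 adjusted p of any gene (1.15e-09). At ZT 4 the AIN93G libraries held 18.3, 27.3 and 15.1 CPM and the HFD libraries 2.45, 7.37 and 2.27 CPM. At ZT 8 the values were 8.77, 12.7 and 31.3 CPM on AIN93G and 3.16, 2.56 and 3.92 CPM on the HFD. The diets did not overlap, and the lowest AIN93G library was above the highest HFD library. The log2 fold change was -2.39 (SE 0.37), a 5.24-fold lower level, with an edgeR adjusted p of 0.0767. Its neighbour Pnpla5, a related lipase, had a log2 fold change of -2.42 (SE 0.62) at a far lower level (3.38 ± 2.31 CPM on AIN93G, 0.650 ± 0.536 CPM on the HFD, SD, n = 6).

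Scd1, which makes oleate and palmitoleate and was the most abundant of the list, held 7977, 3942 and 4115 CPM on AIN93G at ZT 4 and 670, 1772 and 2243 CPM on the HFD. At ZT 8 it held 5108, 4549 and 10210 CPM on AIN93G and 2456, 1358 and 3812 CPM on the HFD. The groups did not overlap. The log2 fold change was -1.58 (SE 0.37), the level was 2.99-fold lower on the HFD, and DESeq2 gave an adjusted p of 0.0160, a call that was lost without AIN93G ZT 4 replicate 1 or AIN93G ZT 8 replicate 3. Elovl6, which lengthens palmitate to stearate, was at 139, 149 and 160.1 CPM on AIN93G and 55.7, 69.0 and 65.6 CPM on the HFD at ZT 4. At ZT 8 it was at 181, 221 and 289 CPM on AIN93G and 81.8, 44.7 and 185 CPM on the HFD, so that 1 HFD library reached the AIN93G range. Its log2 fold change was -1.19 (SE 0.27). Acaca, the carboxylase that commits acetyl-CoA to fat, had a log2 fold change of -0.81 (SE 0.18) and means of 188 ± 43.4 CPM and 108 ± 36.5 CPM. Pklr, the liver pyruvate kinase and a ChREBP target, had -0.87 (SE 0.19), with no overlap at either time.

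**Figure D1:**
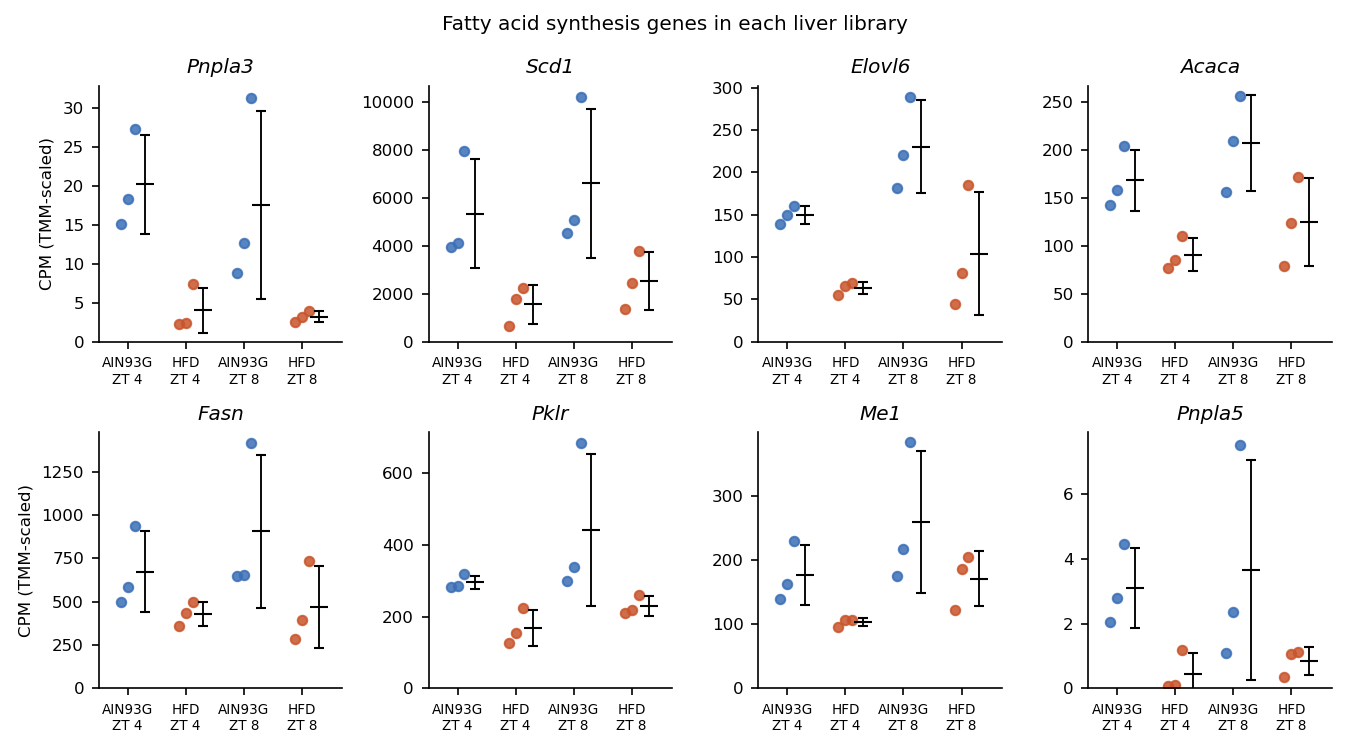
Scaled CPM (vertical axes, from 0) of 8 genes of fatty acid synthesis in each library by diet and time point, where points are libraries and bars the mean ± SD (n = 3). The HFD libraries of Pnpla3, Scd1 and Pklr lie wholly below the AIN93G libraries at both times, those of Fasn overlap at both, and 1 AIN93G library at ZT 8 is high in Fasn (1417 CPM) and Pklr (685 CPM).

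The remaining members did not reach the threshold of either tool. Fasn, fatty acid synthase, held 586, 496 and 936 CPM on AIN93G and 498, 434 and 358 CPM on the HFD at ZT 4, and 652, 650.1 and 1417 CPM on AIN93G and 391, 285 and 735 CPM on the HFD at ZT 8. The groups overlapped at both times, and the log2 fold change was -0.80 (SE 0.28, unadjusted p = 0.0138). Malic enzyme Me1, a source of NADPH, had -0.69 (SE 0.19), and Acacb, the mitochondrial carboxylase whose product inhibits fat oxidation, had -0.63 (SE 0.23). Srebf1, which codes for SREBP-1, had -0.05 (SE 0.20) with means of 445 ± 125 CPM on AIN93G and 437 ± 133 CPM on the HFD, and its sign changed in some fits without 1 library. Mlxipl, which codes for ChREBP, had -0.23 (SE 0.11). The estimates for both regulators were nearer to 0 than those for Pnpla3, Scd1, Elovl6, Acaca and Pklr.

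The desaturases of polyunsaturated fatty acids had positive estimates, unlike Scd1. Fads1, the delta-5 desaturase, had a log2 fold change of 0.24 (SE 0.11) and means of 652 ± 86.6 CPM and 774 ± 138 CPM on AIN93G and the HFD. Fads2, the delta-6 desaturase, had 0.36 (SE 0.12), with 502, 346 and 412 CPM on AIN93G against 585, 549 and 474 CPM on the HFD at ZT 4. Neither was called by edgeR or DESeq2 (edgeR adjusted p = 0.641 and 0.508). Of the 11 genes tested in this list 7 were positive, against 5866 of 12028 over all genes. At an unadjusted p under 0.05, 2 were higher and 1 was lower (Elovl1, an elongase of saturated very long chains, -0.30), against 3.82% of all genes in each direction. The 2 became 1 without AIN93G ZT 4 replicate 2, the muscle-rich library, HFD ZT 8 replicate 1 or HFD ZT 8 replicate 3, and 0 with no block for the time point or in 1 fit with the ZT 0 and ZT 12 libraries (PUFA desaturation and elongation).

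Besides Abcc3, enzymes that handle aldehydes and conjugates were among the genes higher on the HFD. DESeq2 called 5 of 48 tested members of the list of conjugation, aldehyde enzymes and efflux higher and none lower (Abcc3, Ugt3a1, Aldh3a2, Aldh1a1 and Aox1). At an unadjusted edgeR p under 0.05 there were 9 higher and 3 lower, and the median of the list was 0.07, with 0.00074 at ZT 4 and 0.15 at ZT 8. The median was 0.02 without HFD ZT 8 replicate 3 and 0.04 without HFD ZT 4 replicate 2 or AIN93G ZT 8 replicate 1. The lower genes at that level numbered 5 without AIN93G ZT 8 replicate 1 and 1 without AIN93G ZT 4 replicate 1, AIN93G ZT 4 replicate 2, HFD ZT 4 replicate 3 or HFD ZT 8 replicate 1 (conjugation, aldehyde enzymes and efflux). Ugt3a1, a sugar transferase of the UGT superfamily, held 35.9, 34.6 and 51.0 CPM on AIN93G and 65.3, 58.6 and 78.8 CPM on the HFD at ZT 4. At ZT 8 it held 46.7, 42.0 and 40.6 CPM on AIN93G and 61.4, 71.2 and 88.8 CPM on the HFD. No library of one diet entered the range of the other, the log2 fold change was 0.76 (SE 0.12), and the edgeR adjusted p was 0.0675.

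Aldh3a2, the fatty aldehyde dehydrogenase of the endoplasmic reticulum and a PPAR alpha target, held 326, 272 and 258 CPM on AIN93G and 372, 347 and 374 CPM on the HFD at ZT 4. At ZT 8 it held 354, 316 and 276 CPM on AIN93G and 539.8, 602 and 509 CPM on the HFD. The groups were apart at each time, with a log2 fold change of 0.35 (SE 0.14) at ZT 4 and 0.80 (SE 0.14) at ZT 8, and its DESeq2 call held whichever library was left out. Aldh1a1, which oxidises retinaldehyde and other aldehydes, was apart at ZT 8 alone, with 228, 332 and 410.4 CPM on AIN93G and 678, 820.0 and 975 CPM on the HFD. At ZT 4 its groups overlapped (383, 484 and 370 CPM against 409.7, 531 and 560.4 CPM). The difference was 0.28 (SE 0.21) at ZT 4 and 1.35 (SE 0.22) at ZT 8 on the log2 scale, and the interaction had an unadjusted p of 0.00314 and an edgeR adjusted p of 0.994. Aox1, aldehyde oxidase, had 0.17 (SE 0.13) at ZT 4 and 0.79 (SE 0.13) at ZT 8. The diet call of Aldh1a1 by DESeq2 held in 8 of the 12 fits without 1 library and that of Aox1 in 4, and both were lost without the muscle-rich library. The 250 bases before the start of Aldh3a2 (RefSeq, GRCm38.p6, chr11:61267187-61267436, minus strand) are shown because 1 E-box, CACGTG, the element of the clock activators, lies 30 bases from the start (capitals).
Aldh3a2: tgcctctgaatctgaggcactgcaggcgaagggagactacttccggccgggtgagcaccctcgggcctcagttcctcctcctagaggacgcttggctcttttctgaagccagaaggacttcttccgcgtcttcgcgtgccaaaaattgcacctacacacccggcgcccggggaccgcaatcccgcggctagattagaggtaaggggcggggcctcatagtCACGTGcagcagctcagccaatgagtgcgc
E-boxes were in 7.41% of the 27 promoters of genes that DESeq2 called higher, in 16.7% of the 18 of genes called lower and in 11.7% of all.

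Of 36 cytochrome P450 genes of families 1 to 3, 18 had positive and 18 negative estimates. At an unadjusted p under 0.05 there were 5 higher and 1 lower over both times, against 3.82% of all genes in each direction. At ZT 8 there were 6 higher and 2 lower, against 4.68% and 5.29% of all genes. The lower counts are near those shares. The 5 became 2 without AIN93G ZT 8 replicate 1 and 3 without the muscle-rich library, HFD ZT 4 replicate 2 or HFD ZT 8 replicate 3 (cytochrome P450 families 1 to 3). Over both times DESeq2 called Cyp2c40 lower (log2 fold change -0.59, SE 0.14, 765 ± 145 CPM against 508 ± 78.2 CPM). That call held in 7 of the 12 DESeq2 fits without 1 library and was lost without the muscle-rich library. Cyp2c38 was at 90.7, 61.8 and 56.7 CPM on AIN93G and 159, 135 and 167 CPM on the HFD at ZT 8, where DESeq2 called it, and overlapped at ZT 4 (0.05, SE 0.19, against 1.14, SE 0.20, at ZT 8). Cyp2c50 had 0.63 (SE 0.16) at ZT 8, where DESeq2 called it too, the 2 being its calls in the list at that time. Genes of the Cyp2c cluster are close copies, and how reads shared between them were counted was not given in the sources used here.

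**Figure D2:**
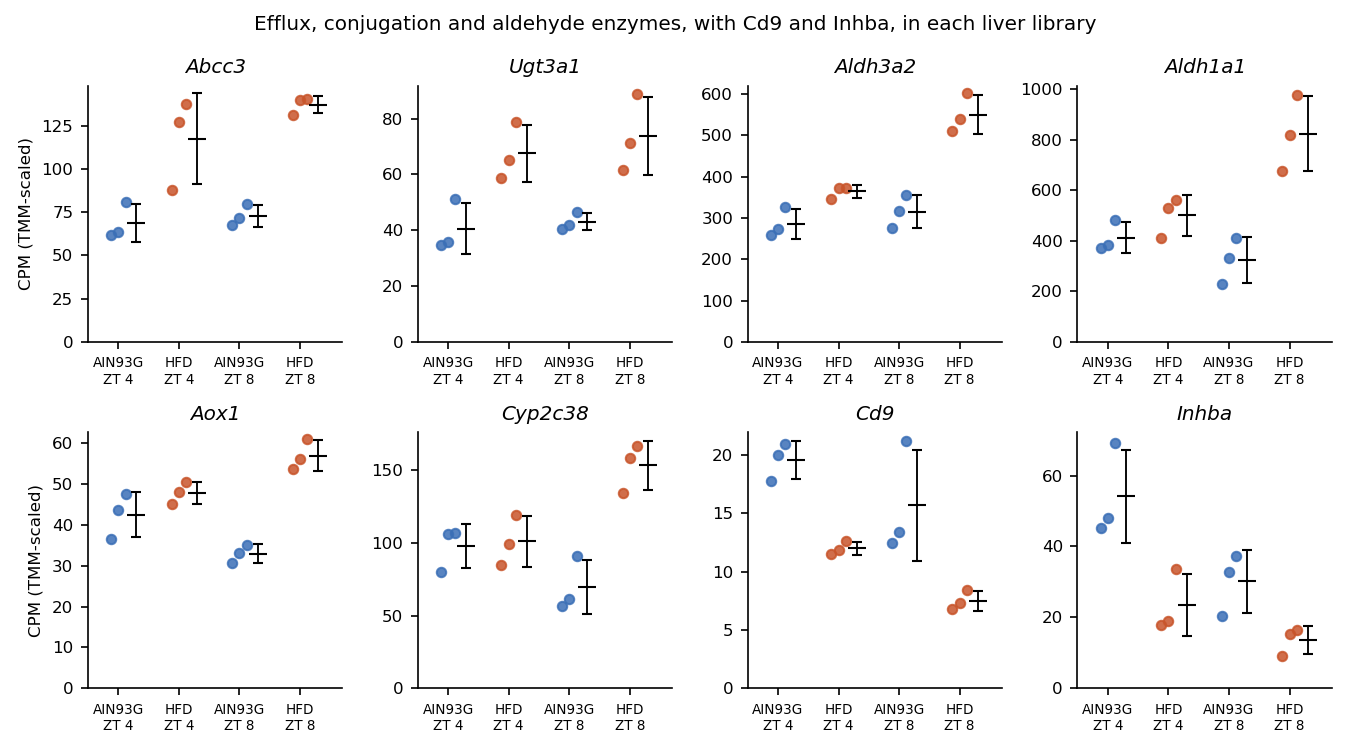
Scaled CPM (vertical axes, from 0) of 8 genes outside fatty acid synthesis in each library by diet and time point, where points are libraries and bars the mean ± SD (n = 3). Abcc3 and Ugt3a1 are apart at both times in the direction of the HFD, Cd9 and Inhba in the other direction, and Aldh1a1, Aox1 and Cyp2c38 are apart at ZT 8.

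Most genes of fat oxidation and of amino acid breakdown had small positive estimates over both times. Of 39 PPAR alpha targets tested 30 were positive, with a median of 0.09 (0.15 at ZT 4 and 0.05 at ZT 8), and 5 had an unadjusted p under 0.05, all positive (3 were positive at that level without AIN93G ZT 4 replicate 2, HFD ZT 4 replicate 3 or HFD ZT 8 replicate 1). The 5 were Aldh3a2, Ppara itself (0.55, SE 0.16), Cpt1a, the gate for fatty acids into mitochondria (0.47, SE 0.14), Cpt2 (0.32) and the ketone body enzyme Bdh1 (0.24). Cpt1a held 350.4, 244 and 360.2 CPM on AIN93G and 509, 361 and 604 CPM on the HFD at ZT 4, and 524, 459.9 and 399 CPM against 548, 574 and 594 CPM at ZT 8. The diets did not overlap at either time. Pdk4, which spares glucose, was the lowest of the list at -1.45. The median of this list depended on single libraries, at 0.01 without AIN93G ZT 4 replicate 2, 0.04 without AIN93G ZT 8 replicate 3, 0.03 without HFD ZT 4 replicate 3 and 0.05 without HFD ZT 8 replicate 1, but at 0.15 without AIN93G ZT 4 replicate 1, HFD ZT 4 replicate 2 or HFD ZT 8 replicate 3 and 0.21 without AIN93G ZT 8 replicate 1 (PPAR alpha targets and fat oxidation).

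Of 44 genes of the urea cycle and amino acid catabolism 33 were positive (median 0.08), and 5 had an unadjusted p under 0.05, all positive. The median was 0.0042 at ZT 4, where 1 gene was higher at that level, and 0.18 at ZT 8, where 5 were higher and 1 lower. Over both times 11 were higher at that level without AIN93G ZT 4 replicate 2, 8 without AIN93G ZT 8 replicate 3 and 3 without AIN93G ZT 8 replicate 1. DESeq2 called Hykk, which breaks down hydroxylysine, and Ppm1k, the phosphatase that switches on branched-chain keto acid oxidation. Hykk held 111, 69.7 and 94.7 CPM on AIN93G and 112, 127 and 152 CPM on the HFD at ZT 4, and 98.8, 78.4 and 119 CPM against 166, 169.6 and 193 CPM at ZT 8. Its groups were apart at both times and its log2 fold change was 0.67 (SE 0.14). Ppm1k had 0.66 (SE 0.17), and its call held in 3 of the 12 DESeq2 fits without 1 library, the one without the muscle-rich library not among them. The median of this list was 0.02 without AIN93G ZT 8 replicate 1, 0.05 without AIN93G ZT 4 replicate 3 and 0.16 without AIN93G ZT 8 replicate 3 (urea cycle and amino acid catabolism).

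Of the 18 hepatokines, activins and hormone receptors tested, DESeq2 called Inhba and Lepr lower and none higher. Inhba, the subunit of activin A, held 48.2, 45.2 and 69.2 CPM on AIN93G and 33.6, 17.9 and 18.9 CPM on the HFD at ZT 4. At ZT 8 it held 32.7, 37.5 and 20.4 CPM on AIN93G and 9.17, 16.5 and 15.2 CPM on the HFD. It was apart at each time, with a log2 fold change of -1.18 (SE 0.21) and an edgeR adjusted p of 0.0904. Lepr, the leptin receptor, was at 33.03, 20.1 and 21.9 CPM against 9.48, 6.30 and 15.6 CPM at ZT 4 and at 34.4, 30.1 and 40.4 CPM against 14.8, 5.39 and 16.9 CPM at ZT 8. The lowest AIN93G library was above the highest HFD library, and the log2 fold change was -1.38 (SE 0.28). Both calls held whichever library was left out. The region before Inhba (RefSeq, GRCm38.p6, chr13:16011601-16011850, plus strand) is shown because it holds 1 D-box, the element of the PAR bZIP factors Dbp, Tef and Hlf (TTATGTAA or TTACGTAA on either strand, in capitals).
Inhba: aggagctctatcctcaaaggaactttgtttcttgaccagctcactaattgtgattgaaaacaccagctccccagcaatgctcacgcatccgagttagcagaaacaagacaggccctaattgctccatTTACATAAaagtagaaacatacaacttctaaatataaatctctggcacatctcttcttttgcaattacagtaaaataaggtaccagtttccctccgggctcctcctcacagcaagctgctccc
D-boxes were in 0.918% of all promoters and in 11.1% of the 18 promoters of genes that DESeq2 called lower, those of Inhba and the calcium pump Atp2b2. Cd9, a membrane tetraspanin, was at 20.0, 17.7 and 20.9 CPM on AIN93G and 11.5, 11.8 and 12.6 CPM on the HFD at ZT 4, then at 21.2, 12.4 and 13.4 CPM against 6.76, 8.40 and 7.27 CPM at ZT 8. It was apart at each time (-0.88, SE 0.14, edgeR adjusted p 0.0675).

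By the smallest p of the diet term, 3 further genes were named as higher, Fam107b (0.56, SE 0.09), the ion channel Asic5 (1.03, SE 0.18) and Them7 (0.97, SE 0.17). Asic5 and Them7 did not overlap between the diets over the 12 libraries, at low levels (8.42 ± 2.20 CPM against 4.09 ± 0.231 CPM for Asic5 and 9.85 ± 2.59 CPM against 4.98 ± 0.991 CPM for Them7, SD, n = 6). DESeq2 called these 3 whichever library was left out. The gene named as lower by the same rule and not yet described was Npas2, the clock activator that can stand in for Clock. It was at 3.62, 9.19 and 6.77 CPM on AIN93G and 2.01, 2.39 and 1.57 CPM on the HFD at ZT 4, and under 0.25 CPM in all libraries at ZT 8, where its level was too low to compare (diet term -1.84, SE 0.37).

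Of 28 genes tested for the stress response of the endoplasmic reticulum 20 were negative, with a median of -0.09, and 4 were lower and none higher at an unadjusted p under 0.05. The median was 0.05 at ZT 4, with 1 gene lower at that level, and -0.27 at ZT 8, with 6 lower. Over both times it was -0.05 without AIN93G ZT 8 replicate 1 and -0.15 without HFD ZT 4 replicate 2 (ER chaperones and stress response). DESeq2 called 2 of them lower, Atf4, the transcription factor of the integrated stress response, and Dnajb9, a co-chaperone induced by unfolded protein. Atf4 was at 85.4, 93.2 and 99.7 CPM on AIN93G and 59.9, 55.0 and 56.6 CPM on the HFD at ZT 8, against 87.3, 86.9 and 94.2 CPM and 78.6, 75.7 and 81.3 CPM at ZT 4. It was apart at both times, with log2 fold changes of -0.70 (SE 0.12) at ZT 8 and -0.19 (SE 0.12) at ZT 4. Dnajb9 had -0.81 (SE 0.21). The diet call of Atf4 held in 6 of the 12 DESeq2 fits without 1 library and that of Dnajb9 in 5, and both were lost without the muscle-rich library.

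Innate immune and acute phase genes went in several directions. Of 35 interferon-stimulated genes tested 31 were positive, the median was 0.29, and 8 were higher and none lower at an unadjusted p under 0.05, of which DESeq2 called Ifit1 (0.83, SE 0.22). Ifit1, which binds foreign RNA, was at 21.1, 45.3 and 32.5 CPM on AIN93G and 38.5, 78.5 and 70.5 CPM on the HFD at ZT 4, then at 24.9, 21.5 and 30.7 CPM against 31.3, 39.3 and 57.7 CPM at ZT 8. The groups overlapped at ZT 4 and were apart at ZT 8, and the call held in 5 of the 12 DESeq2 fits without 1 library, the one without the muscle-rich library not among them. Over the 12 fits without 1 library between 28 and 32 of the interferon-stimulated genes were positive, and between 4 and 14 had an unadjusted p under 0.05, with 4 without HFD ZT 4 replicate 2, 5 without AIN93G ZT 4 replicate 1, AIN93G ZT 8 replicate 1 or HFD ZT 8 replicate 2, 13 without AIN93G ZT 4 replicate 2 and 14 without HFD ZT 4 replicate 1. The median of this list ran from 0.19 without HFD ZT 8 replicate 2 to 0.34 without HFD ZT 8 replicate 1, and was 0.20 without HFD ZT 4 replicate 2. The summed Kupffer cell markers were highest in HFD ZT 4 replicate 2 (747 CPM) and HFD ZT 8 replicate 2 (758 CPM), and their part in this list was not tested. Of 26 acute phase genes 13 were positive. DESeq2 called the constitutive serum amyloid Saa4 higher (0.58, SE 0.13, 308 ± 83.0 CPM against 205 ± 35.01 CPM), the neutrophil chemokine Cxcl1 higher (1.61, SE 0.44, at 3.54 ± 1.46 CPM against 1.15 ± 0.818 CPM) and the fibrinogen chain Fga lower (-0.43, SE 0.11). The calls of Cxcl1 and Fga each held in 4 of the 12 DESeq2 fits without 1 library and were lost in 8, among them the fit without the muscle-rich library.

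Among 35 genes of lipid droplets and fatty acid uptake 18 were positive and 17 negative. DESeq2 called Gpat3, an acyltransferase that starts triacylglycerol synthesis, higher (1.10, SE 0.28). It held 4.14, 2.79 and 3.33 CPM on AIN93G and 4.96, 9.26 and 10.4 CPM on the HFD at ZT 4, and overlapped at ZT 8. Its call held in 6 of the 12 DESeq2 fits without 1 library. Fabp5, a fatty acid carrier, went the other way and varied widely, at 144, 22.6 and 188 CPM against 72.2, 57.5 and 46.6 CPM at ZT 4 and at 275, 90.9 and 211 CPM against 40.0, 22.2 and 14.1 CPM at ZT 8. It was apart at ZT 8 alone, where DESeq2 called it (-2.92, SE 0.77).

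**Figure D3:**
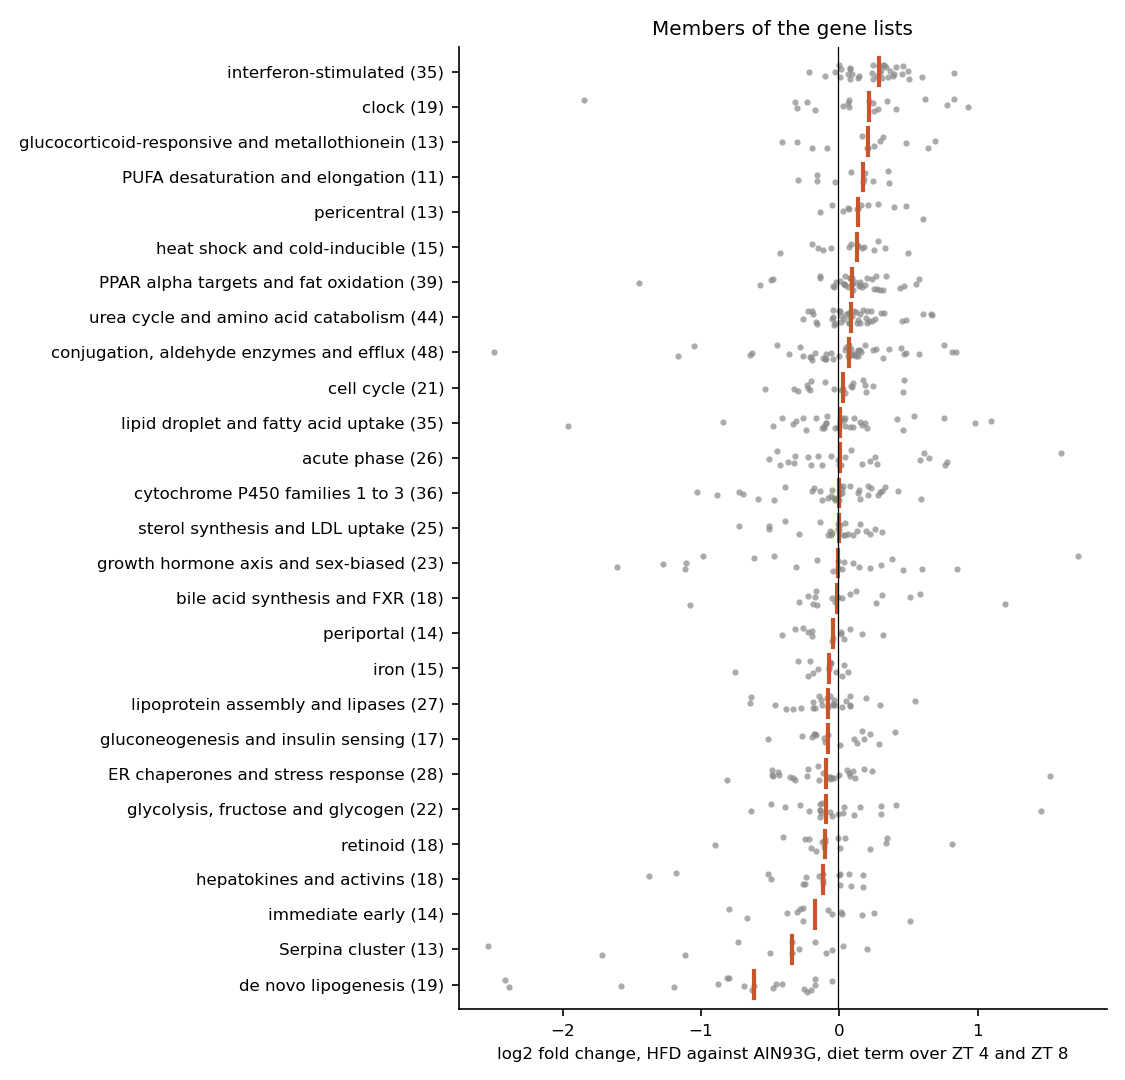
Log2 fold changes (HFD over AIN93G, horizontal axis) of every tested member of the pathway lists in the 12-library fit, 1 list per line. Points are genes, the orange bar is the median of the list, and the marker lists are not drawn. The de novo lipogenesis genes all lie below 0 with the lowest median of the lists drawn (-0.62). The interferon-stimulated genes lie mostly above 0 (median 0.29).

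The diet differences at ZT 4 and at ZT 8 were only loosely alike. Across all genes their log2 fold changes had r = 0.227, a description in which genes are not independent replicates. By edgeR no gene was called at either time, with 308 genes at an unadjusted p under 0.05 at ZT 4 (1.4% of all genes higher, 1.16% lower) and 1199 at ZT 8 (4.68% higher, 5.29% lower). DESeq2 called 6 higher (0.0499%) and 4 lower (0.0333%) at ZT 4, and 36 higher (0.299%) and 26 lower (0.216%) at ZT 8. The difference between the times, the interaction of diet and time, gave no edgeR call (436 genes at an unadjusted p under 0.05) and 1 by DESeq2 (0.00831%), Mvd. Of the 308 genes at ZT 4, 68.2% had the same sign at ZT 8, against 55.8% of all genes.

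The gene with the interaction call is one of sterol synthesis. Of 25 sterol synthesis genes tested, 12 were positive and 13 negative, and none had an unadjusted p under 0.05 over both times. Their median was 0.28 at ZT 4, with 1 gene higher at that level, and -0.20 at ZT 8, with 4 lower. Over both times the counts turned on single libraries, with 20 of 25 negative without HFD ZT 4 replicate 1 (4 lower at an unadjusted p under 0.05) or AIN93G ZT 4 replicate 2 (2 lower), and 17 of 25 positive without AIN93G ZT 8 replicate 3 (sterol synthesis and LDL uptake). Mvd, a decarboxylase of the mevalonate route, was at 13.7, 12.0 and 26.0 CPM on AIN93G and 32.6, 19.6 and 16.5 CPM on the HFD at ZT 4, then at 25.3, 17.5 and 20.1 CPM against 3.41, 8.12 and 4.77 CPM at ZT 8. The groups overlapped at ZT 4 (0.41, SE 0.36) and were apart at ZT 8 (-1.94, SE 0.38). The interaction had a DESeq2 adjusted p of 0.0287 and an edgeR adjusted p of 0.994. In the bile acid list Nr0b2, the repressor SHP that bile acids induce through FXR, was at 54.7, 47.9 and 14.6 CPM on AIN93G and 8.24, 8.97 and 9.26 CPM on the HFD at ZT 8 (-2.15, SE 0.47, called by DESeq2) and overlapped at ZT 4 (-0.08, SE 0.44). Slc10a2, the sodium-dependent bile acid carrier, had 1.88 (SE 0.51) at ZT 8, and Cyp7b1, of the alternative route of bile acid synthesis, had 1.25 (SE 0.30) at ZT 4, both called by DESeq2 at that time. Cyp7a1, the rate-limiting enzyme of the classic route, ran from 24.9 to 414 CPM on AIN93G and from 27.5 to 273 CPM on the HFD, and its diet difference (0.31, SE 0.72) was within that spread.

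Lipg, endothelial lipase, was at 8.60, 7.59 and 7.31 CPM on AIN93G and 25.5, 12.2 and 19.7 CPM on the HFD at ZT 4. The groups did not overlap (1.29, SE 0.24, DESeq2 adjusted p 0.00466). At ZT 8 both diets lay between 22.2 and 36.7 CPM (-0.14, SE 0.23). Of 13 genes of the Serpina cluster 11 were negative, with a median of -0.34, of -0.08 at ZT 4 and of -0.52 at ZT 8. Over both times 3 were lower at an unadjusted p under 0.05, but 7 without AIN93G ZT 4 replicate 2 and 5 without HFD ZT 4 replicate 3, and the median was -0.22 without HFD ZT 8 replicate 3 (Serpina cluster). DESeq2 called Serpina9 and the pseudogene Serpina4-ps1 lower at ZT 8. Serpina4-ps1 was at 311, 541 and 135 CPM on AIN93G and 20.3, 13.5 and 30.5 CPM on the HFD at ZT 8, against 119, 17.01 and 396 CPM and 60.3, 64.5 and 112 CPM at ZT 4. It is a copy of a coding serpin, so its reads may be shared. Hsd3b5, a steroid enzyme that male livers express more, had 0.62 (SE 0.41) at ZT 4 and -1.86 (SE 0.43) at ZT 8, where DESeq2 called it lower.

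**Figure D4:**
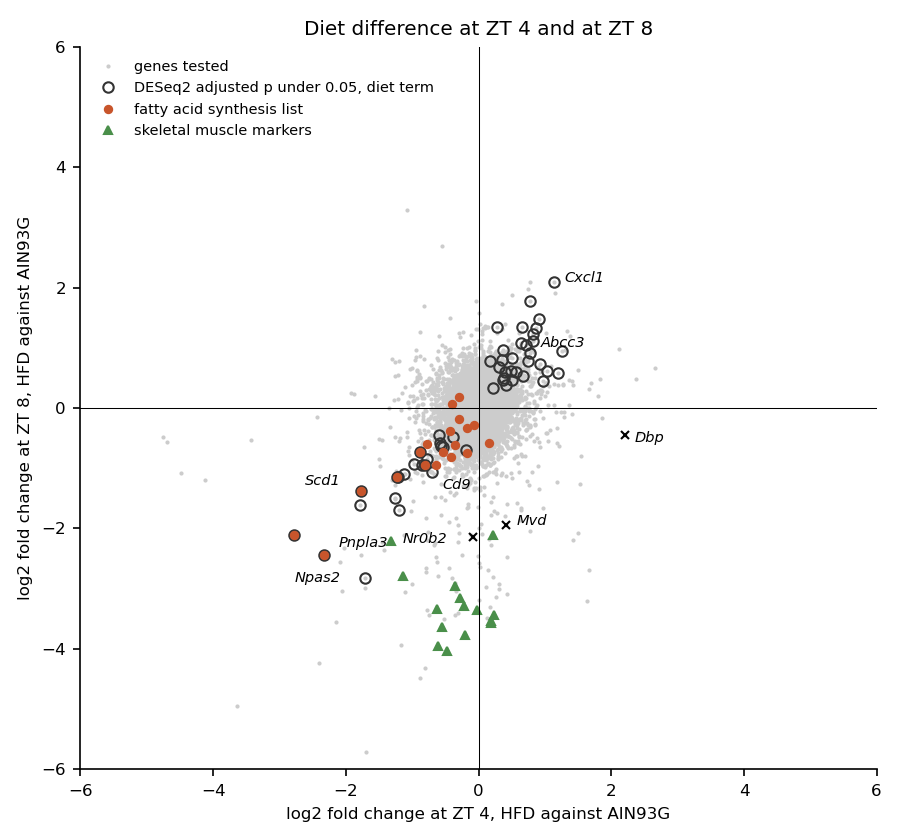
Log2 fold changes of HFD over AIN93G at ZT 4 (horizontal axis) and ZT 8 (vertical axis) for each gene tested, with genes called by DESeq2 over both times as open circles, the fatty acid synthesis list in orange, skeletal muscle markers as green triangles and other labelled genes as crosses. The 53 open circles were chosen on these same libraries, so their agreement in sign is no separate evidence, Mvd and Nr0b2 lie low at ZT 8 and near 0 at ZT 4, and 2 genes lie outside the axes.

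Of the clock genes DESeq2 called 1 at ZT 4, Per3, and edgeR none. Of the 19 in the list 7 were higher and 3 lower on the HFD at an unadjusted p under 0.05 in the ZT 4 contrast, against 1.4% and 1.16% of all genes, and at ZT 8 there was 1 of each. Per3, of the repressor arm, was at 5.43, 4.45 and 6.35 CPM on AIN93G and 26.3, 8.63 and 16.7 CPM on the HFD at ZT 4 (1.67, SE 0.40, called by DESeq2). At ZT 8 it was at 82.2, 61.7 and 81.5 CPM against 89.3, 58.3 and 132 CPM. Dbp, an output activator, was at 11.8, 1.96 and 3.81 CPM on AIN93G and 31.3, 14.6 and 34.5 CPM on the HFD at ZT 4 (2.20, SE 0.57), and had -0.45 (SE 0.52) at ZT 8. Both were apart at ZT 4 and overlapped at ZT 8. Tef (0.95, SE 0.26), Nr1d2 (0.54, SE 0.18) and Per1 (0.72, SE 0.24) were also positive at ZT 4, and Arntl (-0.67, SE 0.25) and Npas2 (-1.71, SE 0.40) negative. For ZT 8 over ZT 4 the log2 fold changes were 3.08 for Per3, 3.23 for Dbp, 1.69 for Tef, 1.06 for Nr1d2, 1.78 for Per1, -3.47 for Arntl and -5.36 for Npas2, and that comparison shares the ZT 4 libraries with the diet contrast. The Npas2 value rests on very few reads at ZT 8, so its size is approximate. Over both times Clock (0.07, SE 0.16), Nr1d1 (0.03, SE 0.22), Per1 (0.25, SE 0.21), Per2 (0.06, SE 0.32), Cry1 (-0.32, SE 0.35) and Arntl (-0.30, SE 0.22) were called by neither tool, and the signs of Clock, Nr1d1 and Per2 changed with the block or with the libraries kept.

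The other lists held no DESeq2 call over both times beyond genes already named. They are given by their counts at an unadjusted p under 0.05, to be read against 3.82% of all genes in each direction, so that 1 gene in a list of this size is near the background. Glycolysis, fructose and glycogen genes were negative in 14 of 22, with 3 lower at an unadjusted p under 0.05, among them Khk, which phosphorylates fructose (-0.49, SE 0.21), and Gpi1 (-0.39, SE 0.12). Gluconeogenesis and insulin sensing genes had 1 higher and 1 lower of 17, the latter Igfbp2 (-0.51, SE 0.19). Of 27 lipoprotein and lipase genes 1 was lower at that level (Apom, -0.46). Of 23 genes of the growth hormone axis 2 were lower and 1 higher, the lowest being Socs2, a feedback inhibitor of growth hormone signalling (-1.61, SE 0.49). Iron genes (15), cell cycle genes (21), immediate early genes (14) and glucocorticoid-responsive genes (13) had none in either direction over the 12 libraries, but each of these lists had at least 1 in some fits without 1 library. Without AIN93G ZT 4 replicate 2, 2 cell cycle and 2 glucocorticoid-responsive genes were higher. Without HFD ZT 8 replicate 1, 2 glucocorticoid-responsive genes were lower and 1 was higher. Heat shock and cold-inducible genes had 1 higher of 15 (Hsp90aa1, 0.50), and retinoid genes, beside Aldh1a1, 1 lower of 18 (Rdh11, -0.41). Pericentral genes had 3 higher of 13, and 1 without the muscle-rich library, HFD ZT 8 replicate 2 or HFD ZT 8 replicate 3. Of 14 periportal genes 1 was higher and 3 were lower, and 1 was lower without the muscle-rich library, AIN93G ZT 4 replicate 1, AIN93G ZT 8 replicate 3, HFD ZT 4 replicate 1 or HFD ZT 8 replicate 1. The lower genes of the growth hormone axis numbered 5 without HFD ZT 4 replicate 1 and 4 without HFD ZT 8 replicate 3 (growth hormone axis and sex-biased).

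Mice killed at ZT 0 and at ZT 12 were not in the fit and give the same measure in other libraries. Of the 12 libraries at ZT 4 and ZT 8, 4 share the leading number of their title with a ZT 0 or ZT 12 library of the same diet. Of the 53 genes that DESeq2 called over ZT 4 and ZT 8, 53 had the same sign at ZT 0, where 62.3% of all genes did, and 32 of the 53 had an unadjusted edgeR p under 0.05 there, against 7.74% of all genes. At ZT 12 the sign was the same for 32 of 53 (60.4%), against 41.9% of all genes. Of those 32, 1 had an unadjusted edgeR p under 0.05, and genes that changed sign were not counted. Over all genes 4.32% reached that level in either direction. Of the 919 genes at an unadjusted edgeR p under 0.05 over ZT 4 and ZT 8 the sign was the same for 82.5% at ZT 0 and for 42% at ZT 12, the latter near the share of all genes. The labels of the ZT 12 mice put 1 library of each diet in the light phase and the other 4 in the dark phase. Abcc3 had 0.86 (SE 0.10) at ZT 0 and 0.08 (SE 0.24) at ZT 12. The lipogenic genes had a median of -1.66 at ZT 0 and of -0.46 at ZT 12, with -3.12 (SE 0.43) for Scd1, -2.75 (SE 0.50) for Elovl6, -2.01 (SE 0.24) for Me1 and -1.77 (SE 0.51) for Fasn at ZT 0. Errors were wider at ZT 12, at -1.20 (SE 1.03) for Scd1. Fads2 had 0.29 (SE 0.19) at ZT 0 and 1.12 (SE 0.37) at ZT 12. Inhba had -1.25 (SE 0.26) at ZT 0, Gpat3 1.83 (SE 0.27), Ppm1k 0.86 (SE 0.15) and Saa4 0.70 (SE 0.11).

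**Figure D5:**
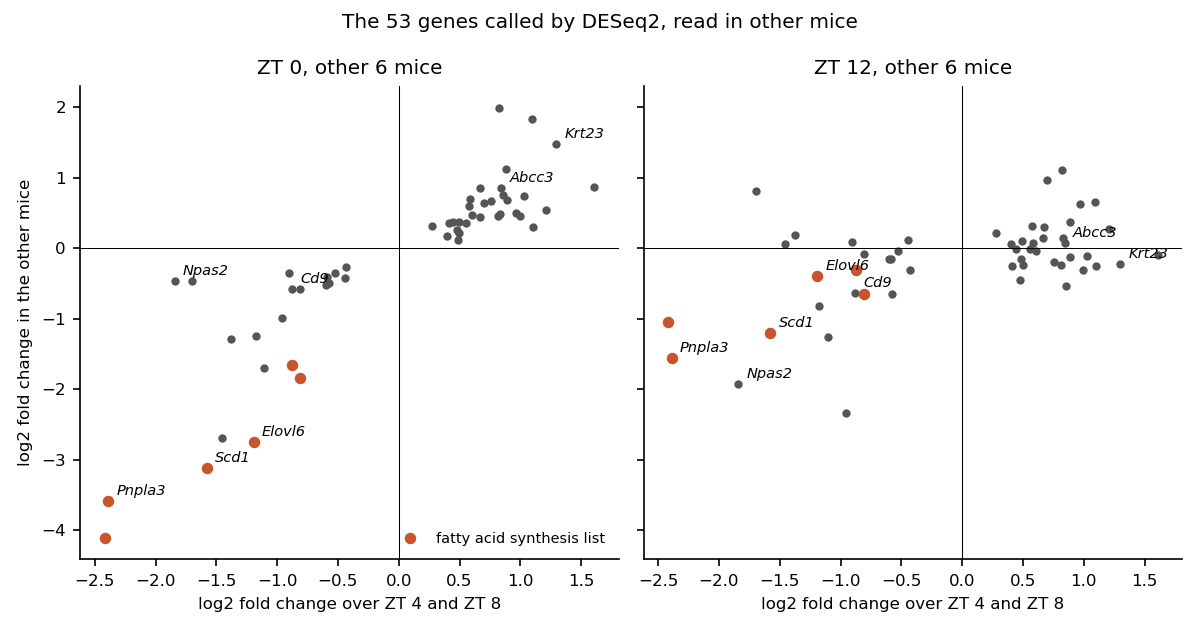
Log2 fold changes of HFD over AIN93G in the ZT 4 and ZT 8 libraries (horizontal axis) against those at ZT 0 and at ZT 12 (vertical axes) for the 53 genes called by DESeq2. All 53 keep their sign at ZT 0, and 32 keep it at ZT 12.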

How the data were processed

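The authors deposited a table of raw counts per gene, made per the labels from poly(A)-selected, paired-end libraries, with fastp, STAR and HTSeq 0.6.1 on mm10 named in the submitters' processing notes. The annotation release and strand setting are not given in the sources used here. From those counts, genes with a mean of at least 25 over the 12 libraries (12028 of 54532) were tested with edgeR 4.0.16 (TMM, robust quasi-likelihood F-test, Benjamini-Hochberg adjusted p under 0.05), with diet and time point as terms. A fit with 4 groups gave the contrasts at ZT 4 and ZT 8 and the interaction, and ZT 0 and ZT 12 were each fitted alone. CPM values use the TMM-scaled library size (marker sums use total counts). DESeq2 1.42.0 and limma 3.58.1 were alternatives, and the edgeR and DESeq2 steps were tested on simulated data. The simulated libraries had less spread than these 12, so they do not give the share of changes that would be found here. Libraries of 1 group differed beyond counting noise (chi-square over df at least 36.3, r from 0.956 to 0.981), so none was counted as a duplicate. Named genes were those called, the 5 with the smallest p in each direction, the genes the study measured by PCR and members of 27 pathway lists and 13 marker lists (656 of 733 members tested). Other genes called by DESeq2 are named as chosen after their values were seen. The comparison, its members and the lists were chosen with earlier results of these data known. No set test was run. Promoters are from RefSeq, and those of Abcc3 and Scd1 are not shown.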

Additional observations from a re-analysis of the deposited data

How the results depend on the processing

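The number of genes called depended on the tool and the filter. For the diet term edgeR called 1 gene, higher on the HFD, DESeq2 53 (31 higher, 22 lower), edgeR with library totals alone 2 (2 higher), without a filter on counts 28 (15 higher, 13 lower), with at least 25 counts in every library 6 (4 higher, 2 lower) and in 1 fit with the ZT 0 and ZT 12 libraries (24 in all) 2 (2 higher). RLE factors, no block for the time point, and limma-voom and the newer edgeR dispersion handling, both chosen after seeing the data, kept the count at 1. For ZT 4 the count went from 0 to 10 with DESeq2 and 136 without a filter, for ZT 8 from 0 to 62 with DESeq2, 506 without a filter and 1 in the fit of 24 libraries, and for the interaction from 0 to 1 with DESeq2 and 156 without a filter. Of the unfiltered calls 3 of 28, 16 of 136, 81 of 506 and 14 of 156 had a mean count under 25, and the cause was not tested.

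Leaving out 1 library at a time gave from 0 to 2 edgeR calls for the diet term (from 0 to 1 lower), at ZT 4 from 0 to 2, at ZT 8 from 0 to 2 and for the interaction from 0 to 1. With DESeq2, added after seeing the data, it gave from 31 to 86 (from 14 to 47 higher, from 15 to 39 lower), with 31 without HFD ZT 4 replicate 3, 32 without AIN93G ZT 8 replicate 2 (the muscle-rich library), 35 without AIN93G ZT 8 replicate 1 and 86 without AIN93G ZT 4 replicate 2. Of the 53 genes 28 were still called without the muscle-rich library, 27 without HFD ZT 4 replicate 3 and 17 whichever library was left out. The count of genes at an unadjusted p under 0.05 was 919 and ran from 610 without the muscle-rich library to 1068. Of 107 named genes 103 kept their sign under every alternative. Without the block Clock (-0.017), Nr1d1 (-0.031) and Per2 (-0.073) turned negative. Without 1 library Clock ran from -0.054 to 0.16, Nr1d1 from -0.11 to 0.20, Per2 from -0.11 to 0.24 and Srebf1 from -0.18 to 0.085. No paired analysis was possible because the replicate numbers follow accession order and the labels give no pairing of mice. Depth limits the genes under about 1 CPM, where a library holds few reads.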

Other observations

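DESeq2 called 29 genes that are in none of the pathway lists, and the following were chosen after their values were seen. Tlr12, a toll-like receptor gene, was at 5.04, 6.11 and 5.08 CPM on AIN93G and 14.2, 11.2 and 11.8 CPM on the HFD at ZT 4, then at 6.28, 6.48 and 8.96 CPM against 8.24, 14.5 and 9.83 CPM at ZT 8. It was apart at ZT 4 and overlapped at ZT 8, with a log2 fold change of 0.89 (SE 0.18). Map3k13, a kinase of stress signalling, was apart at both times (18.4 ± 5.33 CPM against 33.02 ± 5.67 CPM, SD, n = 6, 0.86, SE 0.18). Hcn3, a cation channel gene, was called lower on the HFD (33.01 ± 23.1 CPM against 11.5 ± 4.40 CPM, -1.46, SE 0.33), and AIN93G ZT 8 replicate 3 held the highest value at 79.2 CPM. Agxt2, a mitochondrial aminotransferase, had a small difference with no overlap over the 12 libraries (128 ± 5.55 CPM against 156 ± 13.5 CPM, 0.28, SE 0.08). The calls of Tlr12, Map3k13 and Hcn3 held whichever library was left out, and that of Agxt2 held in 3 of the 12 fits, the one without the muscle-rich library not among them.

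At ZT 4 alone DESeq2 called Ntrk2, a neurotrophin receptor gene, lower on the HFD (12.99, 12.1 and 8.04 CPM against 5.46, 3.28 and 4.19 CPM), while at ZT 8 its log2 fold change was 0.00 (SE 0.26). Sult2a1, a sulfotransferase of steroids and bile acids, was called lower at ZT 4, with 22.4, 24.7 and 0.665 CPM on AIN93G and 0.836, 0.819 and 0.175 CPM on the HFD, so that 1 AIN93G library lay within the HFD range. At ZT 8 alone Slc16a10, a carrier of aromatic amino acids, was called higher (0.86, SE 0.22), Crebrf, a regulator of the stress factor Creb3, higher (1.11, SE 0.27) and Aacs, which activates acetoacetate for lipid synthesis, lower (-1.29, SE 0.40). In the other libraries Aacs had -1.69 (SE 0.62) at ZT 0 and 0.20 (SE 0.33) at ZT 12.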
